A study of Mus musculus with 27 samples.

Results

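Lymphatic endothelial cells of the Ang II-infused mouse aorta were taken from 4 single-cell libraries by their marker genes. A cell barcode was kept when it held at least 500 genes and at least 1000 UMIs (unique molecular identifiers, each standing for 1 captured RNA molecule) with at most 15% of UMIs from mitochondrial genes. A kept cell was called lymphatic when at least 3 of the 6 genes Prox1, Mmrn1, Flt4, Ccl21a, Reln and Lyve1 had a UMI and Ptprc, the pan-leukocyte gene CD45, had none. The rule found 724 lymphatic cells among 43812 kept cells (1.65%). The cells were chosen by the measured UMIs of these 6 genes and of Ptprc, so their levels are given as a description with no test.

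All mice were of the C57BL/6 background and had received angiotensin II (Ang II), a hypertensive peptide hormone, for 28 days. The single-cell libraries came from digested aortas with the surrounding tissue left on (non-stripped), 2 from mice labelled TKO and 2 from mice labelled Cre. Bulk RNA-seq covered non-stripped aorta (3 TKO, 3 Cre), stripped aorta (2 TKO, 4 Cre), isolated aortic fibroblasts (3 TKO, 3 Cre), and non-stripped TKO aorta from mice given an IL-9 antibody (IL9mAb, 2 samples) or IgG (3 samples) with the Ang II. The labels define neither TKO nor Cre, give no age or sex and name no pooling; the series title places KLF10 and IL-9 in CD4+ T cells, and the genotype names below are those of the labels. The stripped samples carry nonstripped in their titles and stripped in every other field, and no untreated mouse is among the samples.

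Lymphatic endothelium lines the vessels that return tissue fluid, lipid and leukocytes to the blood. The transcription factor Prox1 sets and keeps its identity, and the receptor VEGFR3, encoded by Flt4, receives the growth factor VEGF-C. Initial (capillary) lymphatics carry the hyaluronan receptor LYVE1 and secrete the chemokine CCL21, which draws dendritic cells and T cells through the receptor CCR7, while collecting vessels downstream carry little of either and hold valves. Around arteries, lymphatics run in the adventitia and perivascular fat.

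The chemokine that marks these cells comes from a cluster of near-identical genes on mouse chromosome 4, so part of its coding sequence is shown to make the identity of the counted RNA clear. The stretch runs from position 151 to 280 of the spliced transcript of Ccl21a (GRCm38, GENCODE annotation, chr4:42773532-42773755, minus strand) and of Gm21541 (chr4:41903848-41904071, plus strand), counted from 1 at the transcript's 5′ end, and lies in the coding exons. Capitals mark the bases that differ, T159A and C269T from Ccl21a to the copy.
Ccl21a: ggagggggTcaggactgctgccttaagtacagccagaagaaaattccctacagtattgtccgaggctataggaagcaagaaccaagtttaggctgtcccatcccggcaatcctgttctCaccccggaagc
Gm21541: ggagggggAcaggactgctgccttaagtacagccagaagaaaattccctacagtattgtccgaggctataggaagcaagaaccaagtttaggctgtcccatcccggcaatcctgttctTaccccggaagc
Ccl21b (chr4:42255930-42256153, plus strand) carries the same letters as Gm21541 over this stretch. Across the 870 bases of both transcripts, Gm21541 differed from Ccl21a at 6 positions, and the longest identical run was 370 bases. The authors' counts place 31504 UMIs on Ccl21a, 209 on Gm21541 and 3 on Gm13304 in the kept cells, so how reads were split among the copies is uncertain and the values below are best read as Ccl21 RNA. In the 23 bulk libraries Ccl21a held 1 count in all, and Ccl21 is therefore described in the single cells only.

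The single-cell libraries held 25922726 to 60910282 UMIs, and the kept cells had median UMI counts of 1593 and 1409 in TKO 1 and TKO 2, against 2768 and 1683 in Cre 1 and Cre 2. Lymphatic cells had medians of 1759 and 1512 UMIs in TKO and 3233 and 2099 in Cre libraries, so Cre 1 was the deepest and TKO 2 the shallowest. Mitochondrial genes took a median of 5.79% and 6.62% of their UMIs in TKO and 6.28% and 9.30% in Cre libraries. Any 2 libraries shared 12 to 68 kept barcodes and no lymphatic barcode; 5 lymphatic cells shared a barcode with another kept cell. The T cell class was not split into CD4+ T cells, those of the series title, and other T cells. It held Klf10 at 45.9 and 43.6 CPM (counts per 1000000 UMIs of the class in a library) in TKO libraries. In Cre libraries it held 41.3 and 30.8, so this class did not stand lower in the libraries labelled TKO. Klf10 in CD4+ T cells alone was not tested. The labels do not say which part of which gene is deleted, or whether 3′ counts would show it.

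Endothelial genes the rule did not use were seen in most of the lymphatic cells, together with RNA of other cells. The fibroblast gene Dcn had a UMI in 53.0% and the haemoglobin gene Hbb-bs in 60.2% of the 724 cells. Of the 724 cells, 649 held a UMI of at least 1 of the endothelial genes Pecam1, Cdh5, Cldn5 and Egfl7. All 6 gate genes were seen in 238 cells (32.9%), and the next commonest combination was 5 genes without Prox1 in 69 cells (9.53%). The blood endothelial panel (at least 3 of Flt1, Vwf, Gpihbp1, Ptprb, Emcn and Sox17) was also met by 116 lymphatic cells, and the fibroblast panel (at least 4 of Pdgfra, Col1a1, Dcn, Lum, Dpt and Clec3b) by 107, of which 65 were in TKO 1, 13 in TKO 2, 13 in Cre 1 and 16 in Cre 2. A further 222 cells had 3 or more gate genes together with Ptprc and were left out by the rule. At its edge the gate held 175 cells with exactly 3 of the genes and left out 329 with 2; the fibroblast gene Dcn had a UMI in 59.4% of the first and 59.0% of the second, the endothelial gene Pecam1 in 65.1% of the first and 33.7% of the second, and the macrophage gene C1qa in 16.6% of the first and 41.0% of the second.

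The gate genes were all far higher in the lymphatic cells than in the 1750 blood endothelial cells (at least 3 genes of the blood panel, Ptprc 0, at most 1 gate gene), as the gates require. Levels below are CPM scaled with TMM factors (edgeR's library size correction). Prox1 stood at 806 and 661 in TKO and 885 and 674 in Cre libraries, with a mean of 7.60 ± 5.76 in blood endothelial cells (SD, n = 4 libraries here and below). Flt4, which encodes VEGFR3, stood at 538 and 504 in TKO and 838 and 670.4 in Cre libraries and at 25.4 ± 4.28 in blood endothelial cells, the highest blood endothelial share of its lymphatic level among the 6 genes. Both genes were highest in Cre 1 and lowest in TKO 2.

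Ccl21a was the most abundant gate gene, at 7507 and 9764 in TKO and 13802 and 11772 in Cre libraries, against 16.8 ± 19.7 in blood endothelial cells. Mmrn1, which encodes the secreted glycoprotein multimerin 1, stood at 2991 and 2603 in TKO and 4204 and 3026 in Cre libraries, and the extracellular matrix glycoprotein Reln at 925 and 832 in TKO and 1352 and 1029 in Cre libraries. Lyve1 stood at 2375 and 2547 in TKO and 3345 and 2674 in Cre libraries, against 56.8 ± 12.8 in blood endothelial cells. A UMI is counted at the transcript's 3′ end and does not scale with its length, so these levels can be ordered: Ccl21a over Mmrn1, Lyve1 and Reln in each library, with Mmrn1 and Lyve1 close to each other in TKO 2 and Cre 2.

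Lymphatic cells held 2.00% of all UMIs in kept cells and more than 50% of the UMIs of 8 of the 21 lymphatic genes, 5 of which the gate itself required. The other 13 ran from 5.22% for Itga9 to 36.4% for Tbx1. Of the Ccl21a UMIs, 72.8% lay in them, as did 72.1% of Mmrn1, 69.1% of Reln, 65.0% of Flt4 and 61.7% of Prox1 UMIs. Lyve1 was the 1 gate gene below that, with 19.1%: macrophages, which carry it in the arterial adventitia, held it at 587 and 482 CPM in TKO and 977 and 689 in Cre libraries. Ccl21a had a UMI in 78.0% and 83.5% of lymphatic cells of TKO 1 and TKO 2 and in 77.5% and 91.0% of Cre 1 and Cre 2, against 7.57% and 2.31% of TKO and 3.28% and 1.18% of Cre T cells, which should lack it and whose share shows the level that free RNA and mixed droplets can give (T cell median depth 1897.5 and 1644 UMIs in TKO, 2870 and 2197 in Cre libraries).

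**Figure D1:**
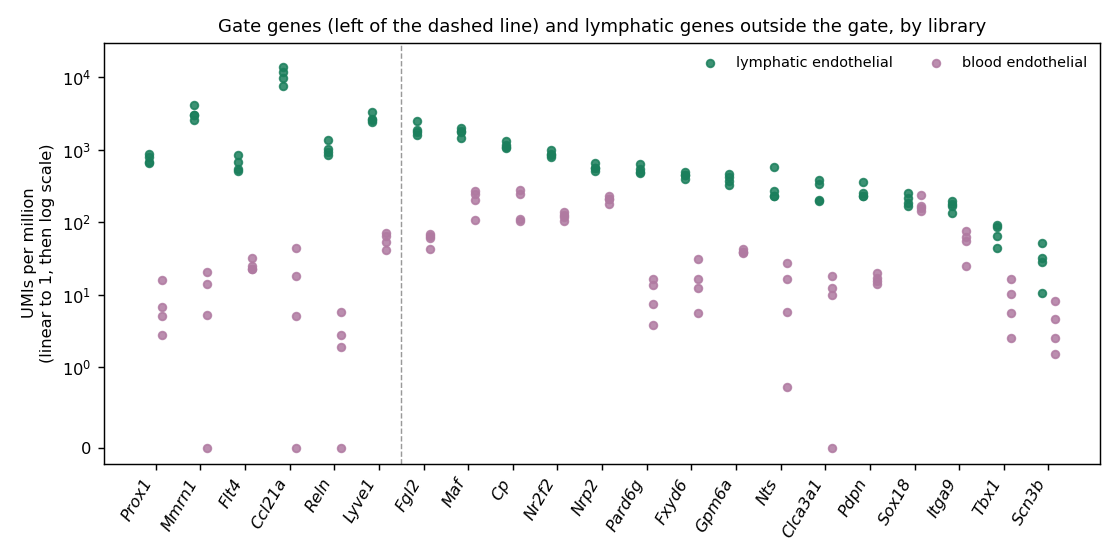
Level of 21 lymphatic genes in lymphatic and in blood endothelial cells of each library, in CPM on a symmetrical log axis; each point is 1 library. The 6 gate genes and 14 of the 15 genes outside the gate sit higher in the lymphatic cells, and Sox18 overlaps.

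The share of lymphatic cells did not differ between TKO and Cre aortas beyond the spread between libraries. They were 313 of 15365 kept cells in TKO 1 (2.04%, 95% Clopper-Pearson interval 1.82 to 2.27) and 91 of 7425 in TKO 2 (1.23%, 0.988 to 1.503), against 209 of 14489 in Cre 1 (1.44%, 1.25 to 1.65) and 111 of 6533 in Cre 2 (1.70%, 1.40 to 2.04). The highest and the lowest share were both TKO, so the groups overlapped. The TKO mean was 1.63% ± 0.57 and the Cre mean 1.57% ± 0.18 (SD, n = 2 each), a difference of 0.0606 percentage points (two-sided exact permutation test, p = 1; 2 against 2 cannot go below 0.33). With every kept cell thinned to 1000 UMIs the shares were 1.86% and 1.17% in TKO and 1.23% and 1.68% in Cre libraries.

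As a share of endothelial cells (lymphatic plus blood endothelial), lymphatic cells were 40.7% and 27.7% in TKO and 19.5% and 36.3% in Cre libraries. Cre 1, with 861 of the 1750 blood endothelial cells, had the lowest share. The means were 34.2% ± 9.22 in TKO and 27.9% ± 11.8 in Cre libraries (SD, n = 2 each; two-sided exact permutation test, p = 0.667). Thinning to 1000 UMIs gave 49.1% and 35.8% in TKO and 27.4% and 47.2% in Cre libraries. The share of an aorta that is lymphatic also moves with how the tissue was dissected and digested, which was not tested.

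**Figure D2:**
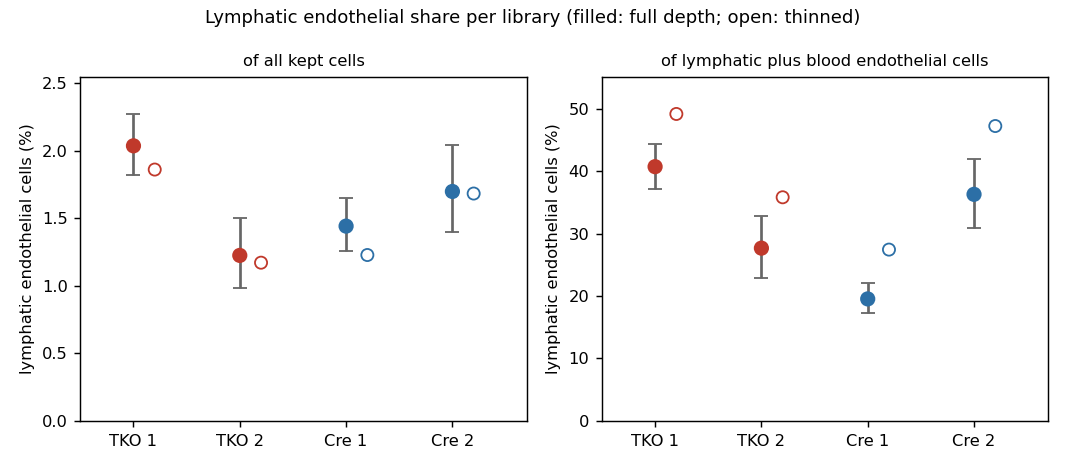
Lymphatic cells as a percentage of kept cells and of endothelial cells in each library, TKO left of Cre; bars are 95% Clopper-Pearson intervals for counting error, filled points use the full depth and open points cells thinned to 1000 UMIs. TKO 1 with 2.04% and TKO 2 with 1.23% of kept cells enclose both Cre libraries.

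To describe what else lymphatic cells carried, their summed UMIs were set against those of the blood endothelial cells of the same library (edgeR quasi-likelihood test, library as a block). Both classes were drawn by markers from the same cells, so these tests say how steady a difference was over 4 libraries, not that the classes differ. Of 8109 genes that belong to neither gate, 1821 differed at an adjusted p under 0.05 (22.5%), 801 higher (9.88%) and 1020 lower (12.6%) in lymphatic cells, with a median log2 fold change of -0.03 over all of them. Of 15 lymphatic genes outside the gate, 14 were higher and none was lower, with a median of 3.35. The 15 are known lymphatic genes, so their direction follows in part from the choice.

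Among these 15, Pdpn, the mucin-type membrane protein that keeps blood and lymph vessels apart through platelet CLEC-2, stood at 252 and 227 in TKO and 356 and 227 in Cre libraries. Blood endothelium had 17.0 and 19.97 in TKO and 15.4 and 13.8 in Cre libraries (log2 fold change 4.15, SE 0.19, edgeR adjusted p = 4.92e-10). Fibroblasts of these libraries held Pdpn as well, at a mean of 145, against 271 in lymphatic cells on the same unscaled level. Fgl2, a secreted fibrinogen-like protein, was higher at 1768 and 1590.4 in TKO and 2528 and 1891 in Cre libraries than at 69.2 and 42.4 in TKO and 61.0 and 63.5 in Cre libraries (log2 fold change 5.05, SE 0.14, edgeR adjusted p = 5.61e-12). Every lymphatic library lay above every blood endothelial one for both genes.

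Nts, the precursor of the peptide neurotensin, stood at 269 and 573 in TKO and 229 and 231 in Cre libraries. Blood endothelium showed 5.67 and 27.5 in TKO and 0.753 and 16.6 in Cre libraries (log2 fold change 5.43, SE 0.35, edgeR adjusted p = 1.44e-08), and TKO 2 was the highest in both classes. Pard6g, a polarity protein, gave 497 and 476 in TKO and 627 and 536 in Cre libraries against 13.6 and 7.49 in TKO and 3.76 and 16.6 in Cre libraries (log2 fold change 6.10, SE 0.28, edgeR adjusted p = 4.92e-10). Lymphatic cells held most kept-cell UMIs of both genes, 57.7% for Nts and 55.3% for Pard6g. Fxyd6, a regulator of the sodium pump, stood at 390.1 and 490.1 in TKO and 448 and 447 in Cre libraries (log2 fold change 4.60, SE 0.24, edgeR adjusted p = 1.43e-09), and Scn3b, a sodium channel subunit, at 28.2 and 32.4 in TKO and 51.0 and 10.6 in Cre libraries (log2 fold change 3.57, SE 0.53, edgeR adjusted p = 9.7e-05); only 23.5% and 18.8% of their UMIs lay in lymphatic cells, a point that returns in the bulk tables. The integrin subunit Itga9, used in valve formation, was the 1 of the 21 genes whose mean was higher in another of the 6 classes compared, at 174 in lymphatic and 262 CPM in smooth muscle cells.

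The transcription factors that act with Prox1 divided between lymphatic-enriched and shared. Nr2f2 (COUP-TFII), a venous and lymphatic factor, stood at 783 and 883 in TKO and 996 and 855 in Cre libraries. Blood endothelium held 124 and 139.8 in TKO and 105 and 119 in Cre libraries (log2 fold change 2.88, SE 0.14, edgeR adjusted p = 6.46e-10). Maf, at 1444 and 1743 in TKO and 1813 and 1989.8 in Cre libraries, was likewise higher (log2 fold change 3.16, SE 0.20, edgeR adjusted p = 1.3e-08), although macrophages held it at 1572 and 1224 in TKO and 1734 and 1446 in Cre libraries. Tbx1, an inducer of Flt4 in mouse embryos, averaged 71.3 ± 21.7 in lymphatic and 8.602 ± 5.97 in blood endothelial cells (log2 fold change 2.68, edgeR adjusted p = 2.5e-06). Sox18, which switches on Prox1 in the embryo, averaged 204 ± 39.1 in lymphatic and 176 ± 42.6 in blood endothelial cells and did not pass (log2 fold change 0.16, edgeR adjusted p = 0.546). Of 12 tested factors of the list, 5 were higher and 1 lower, with a median of 0.35.

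Among tested genes of the VEGF and angiopoietin families, more were lower than higher in lymphatic cells. Flt4 is a gate gene, so its direction was set by the rule and it is not counted here. Nrp2, the co-receptor that binds VEGF-C together with VEGFR3, stood at 506 and 559 in TKO and 658 and 553 in Cre libraries. Blood endothelium gave 209.8 and 209.6 in TKO and 181 and 229 in Cre libraries (log2 fold change 1.48, SE 0.13, edgeR adjusted p = 6.11e-07). Nrp1, the co-receptor for VEGF-A, ran the other way, at 84.5 and 27.7 in TKO and 27.2 and 49.7 in Cre libraries against 493 and 434 in TKO and 650.1 and 519 in Cre libraries (log2 fold change -3.50, SE 0.25, edgeR adjusted p = 5.41e-08). Kdr (VEGFR2), at 618 ± 55.6 in lymphatic and 926 ± 110.3 in blood endothelial cells, was lower by a smaller margin (log2 fold change -0.57, edgeR adjusted p = 0.000689), and Tie1 averaged 166 ± 33.9 in lymphatic and 169 ± 24.6 in blood endothelial cells (log2 fold change -0.01, edgeR adjusted p = 0.991). The ligand Vegfc gave 7 UMIs in lymphatic and 97 in blood endothelial cells. Of 9 tested genes of this axis, 1 was higher, 4 were lower and 4 were not called, with a median of -0.57.

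Genes that guide leukocytes split into those that lymphatic cells carried and those that blood endothelium did. Il7, the cytokine that keeps T cells alive, stood at 154 and 125 in TKO and 188 and 124 in Cre libraries. Blood endothelium had 2.27 and 0 in TKO and 1.88 and 0 in Cre libraries (log2 fold change 6.58, SE 0.30, edgeR adjusted p = 4.26e-10). The decoy receptor Ackr2, which clears inflammatory CC chemokines, stood at 90.1 and 60.1 in TKO and 156 and 124 in Cre libraries. Blood endothelium showed 2.27 and 0 in TKO and 2.64 and 8.28 in Cre libraries (log2 fold change 5.43, SE 0.31, edgeR adjusted p = 3.89e-09). Ackr4, which clears CCL21 and CCL19, gave 84.5 and 64.7 in TKO and 169.8 and 10.6 in Cre libraries. Blood endothelium held 10.2 and 7.49 in TKO and 9.79 and 8.28 in Cre libraries (log2 fold change 3.57, SE 0.31, edgeR adjusted p = 3.2e-07), with Cre 2 near the blood endothelial values and Cre 1 well above the rest. Spns2, the exporter of sphingosine 1-phosphate, averaged 81.2 ± 27.8 in lymphatic and 21.7 ± 5.40 in blood endothelial cells (log2 fold change 2.22, edgeR adjusted p = 5.33e-06).

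The chemokine Cxcl12 was lower, at 154 and 83.2 in TKO and 104 and 99.3 in Cre libraries in lymphatic and 721 and 1335 in TKO and 1186 and 1162 in Cre libraries in blood endothelial cells (log2 fold change -3.22, SE 0.21, edgeR adjusted p = 1.99e-08). The adhesion molecule Vcam1 averaged 77.1 ± 31.4 in lymphatic and 232 ± 103 in blood endothelial cells (log2 fold change -1.61, edgeR adjusted p = 9.09e-07) and was also lower. Of 13 tested trafficking genes 5 were higher and 6 lower, with a median of -0.44; Ccl21a and Lyve1 belong to the gate and are not among them.

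Of 11 tested junction genes 1 was higher and 6 were lower, with a median of -0.43. Claudin 5, the tight junction protein of endothelium, stood at 539 and 522 in TKO and 702 and 575 in Cre libraries. Blood endothelium gave 344 and 429 in TKO and 264 and 259 in Cre libraries (log2 fold change 0.89, SE 0.16, edgeR adjusted p = 0.000539). Claudin 5 was the higher one of the list. VE-cadherin (Cdh5) averaged 439.7 ± 54.6 in lymphatic and 1099.8 ± 119.9 in blood endothelial cells (log2 fold change -1.31, SE 0.11, edgeR adjusted p = 1.76e-07). Jam2, a junctional adhesion molecule, stood at 25.4 and 27.7 in TKO and 10.2 and 31.9 in Cre libraries. Blood endothelium had 240.4 and 227 in TKO and 275 and 207 in Cre libraries (log2 fold change -3.56, SE 0.25, edgeR adjusted p = 3.92e-08). Of 12 tested pan-endothelial genes 1 was higher and 8 were lower, with a median of -0.54.

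Matrix genes and genes of scavenging and lipid handling went in both directions. Lama4, a laminin chain of endothelial basement membranes, was higher at 363 and 222 in TKO and 457 and 216 in Cre libraries. Blood endothelium showed 117 and 82.4 in TKO and 105 and 82.8 in Cre libraries (log2 fold change 1.73, SE 0.15, edgeR adjusted p = 5.02e-07), whereas Col4a1, a collagen IV chain, averaged 448 ± 80.7 in lymphatic and 1070.4 ± 180.1 in blood endothelial cells (log2 fold change -1.25, SE 0.12, edgeR adjusted p = 1.35e-06). Matrix genes split into 5 higher and 5 lower of 15 tested, with a median of 0.25. The fatty acid binding protein Fabp4 stood at 1187 and 1905 in TKO and 812 and 1266 in Cre libraries. Blood endothelium held 8090.3 and 21138 in TKO and 8292 and 16529 in Cre libraries (log2 fold change -3.32, SE 0.12, edgeR adjusted p = 2.72e-11). The fatty acid translocase Cd36 stood at 542 and 499 in TKO and 427 and 439.8 in Cre libraries in lymphatic cells. Blood endothelium gave 3017 and 5760.1 in TKO and 3162 and 4271 in Cre libraries (log2 fold change -3.02, SE 0.14, edgeR adjusted p = 4.92e-10). Stab1, a scavenger receptor, went the other way, at 371 ± 77.8 in lymphatic and 131 ± 32.7 in blood endothelial cells (log2 fold change 1.51, SE 0.15, edgeR adjusted p = 1.32e-06), and of 11 scavenger and lipid genes 4 were higher and 6 lower with a median of -0.78.

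Genes of antigen presentation and interferon response were lower in 9 and higher in 1 of 14 tested, with a median of -0.80. The class II chaperone Cd74 stood at 621 and 532 in TKO and 56.6 and 766 in Cre libraries. Blood endothelium had 836 and 1288 in TKO and 152 and 1495 in Cre libraries (log2 fold change -0.98, SE 0.15, edgeR adjusted p = 9.16e-05). Cre 1 was the lowest library in both classes, so Cd74 also separated that library from the other 3.

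Among genes of TGF-beta and Notch signalling, Tgfbr2, the ligand-binding TGF-beta receptor, stood at 545 and 564 in TKO and 658 and 521 in Cre libraries. Blood endothelium showed 164 and 129.8 in TKO and 131 and 160.0 in Cre libraries (log2 fold change 1.99, SE 0.14, edgeR adjusted p = 4.48e-08). The arterial Notch receptor Notch4 gave 5 UMIs in lymphatic and 233 in blood endothelial cells and was lower (edgeR adjusted p = 4.38e-07). Klf10, a TGF-beta-inducible Krüppel-like factor and the gene of the series title, stood at 109.9 and 171 in TKO and 142 and 110.0 in Cre libraries in lymphatic and 109 and 99.8 in TKO and 81.3 and 74.5 in Cre libraries in blood endothelial cells (log2 fold change 0.53, SE 0.17, edgeR adjusted p = 0.0312). Of the 13 tested genes 6 were higher and 3 lower, with a median of 0.20. The IL-9 receptor gene Il9r gave 1 UMI in lymphatic and 5 in blood endothelial cells, and Il9 was seen in 0 of 724 cells, which allows a share of up to 0.414% of cells with a UMI. Il33, an alarmin of type 2 immunity, was higher at 88.7 and 87.8 in TKO and 123 and 56.8 in Cre libraries. Blood endothelium held 38.6 and 44.9 in TKO and 16.6 and 41.4 in Cre libraries (log2 fold change 1.72, SE 0.31, edgeR adjusted p = 0.00051), the 1 of 7 tested genes of the IL-9 and type 2 list that passed.

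The receptor for the infused peptide was scarce. Agtr1a gave 4 UMIs in lymphatic and 42 in blood endothelial cells and was not tested, and Agtr2 was seen in 0 of 724 cells, which allows a share of up to 0.414% of cells with a UMI. Ace, the angiotensin-converting enzyme, was lower at 40.8 and 55.5 in TKO and 40.8 and 24.8 in Cre libraries. Blood endothelium gave 164 and 99.8 in TKO and 273 and 71.7 in Cre libraries (log2 fold change -2.10, SE 0.24, edgeR adjusted p = 6.04e-06). Nr3c2, the mineralocorticoid receptor, was higher at 46.5 and 60.1 in TKO and 78.1 and 53.2 in Cre libraries. Blood endothelium had 17.0 and 17.5 in TKO and 19.2 and 5.52 in Cre libraries (log2 fold change 1.93, SE 0.24, edgeR adjusted p = 1.95e-05).

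Genes of collecting vessels and valves were present together with those of capillaries. Foxc2, the transcription factor of lymphatic valves, stood at 66.2 and 106 in TKO and 48.7 and 103 in Cre libraries. Blood endothelium showed 36.3 and 7.49 in TKO and 47.8 and 11.04 in Cre libraries (log2 fold change 1.07, SE 0.37, edgeR adjusted p = 0.0491). Sema3a, a guidance ligand that acts in valve formation, stood at 132 and 134 in TKO and 202 and 128 in Cre libraries. Blood endothelium held 2.27 and 0 in TKO and 6.02 and 2.76 in Cre libraries (log2 fold change 5.32, SE 0.27, edgeR adjusted p = 1.12e-09), and Cldn11, a claudin reported at lymphatic valves, gave 79 UMIs in lymphatic and 3 in blood endothelial cells. Gja1 (connexin 43) averaged 323 ± 62.6 in lymphatic and 142 ± 41.0 in blood endothelial cells (log2 fold change 1.24, SE 0.18, edgeR adjusted p = 6.41e-05). In all, 7 of 13 tested valve and collector genes were higher and 4 lower, with a median of 0.84. Of the node sinus list, Marco, Ackr4 and Foxp2 were the 3 tested genes and all 3 were higher. Marco, a scavenger receptor of lymph node medullary sinuses, gave 67 UMIs in lymphatic and 4 in blood endothelial cells. Those 67 UMIs came from only 12 of the 724 lymphatic cells (1.66%).

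The genes with the largest changes included several best known from neurons or glands. Scn3a, a voltage-gated sodium channel, gave 269 UMIs in lymphatic and 3 in blood endothelial cells, Sh3gl3, an endophilin, gave 240 UMIs in lymphatic and 1 in blood endothelial cells, Duox2, an NADPH oxidase of thyroid, gave 209 UMIs in lymphatic and 3 in blood endothelial cells, and Apba2, an adaptor of amyloid precursor protein, gave 123 UMIs in lymphatic and 0 in blood endothelial cells. With 0 to 3 UMIs on the blood endothelial side no fold is given. Ptn, the heparin-binding growth factor pleiotrophin, stood at 272 and 518 in TKO and 666 and 458 in Cre libraries. Blood endothelium gave 17.0 and 4.99 in TKO and 8.66 and 8.28 in Cre libraries (log2 fold change 5.59, SE 0.29, edgeR adjusted p = 1.49e-09). Adgrg3, an adhesion G protein-coupled receptor, stood at 158 and 180.3 in TKO and 288 and 273 in Cre libraries (log2 fold change 6.05, SE 0.30, edgeR adjusted p = 1.09e-09). Slc45a3 and Slc38a4, solute carriers, had log2 fold changes of 6.22 (edgeR adjusted p = 1.67e-09) and 5.46 (edgeR adjusted p = 1.42e-06), and each of these genes was higher in 4 of 4 libraries.

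On the other side, the largest decreases included genes of arterial and capillary blood endothelium. The arterial genes Hey2, a Notch target, and Gja5 (connexin 40) averaged 4.02 ± 1.45 in lymphatic and 63.8 ± 39.3 in blood endothelial cells and 4.05 ± 2.94 in lymphatic and 76.2 ± 51.0 in blood endothelial cells (log2 fold changes -4.34 and -4.32, edgeR adjusted p = 1.84e-07 and 9.24e-08). Tcf15, a factor of fatty acid-transporting capillaries, averaged 7.16 ± 3.27 in lymphatic and 141 ± 76.0 in blood endothelial cells, and Aqp7, the glycerol channel, 14.5 ± 10.7 in lymphatic and 322 ± 124 in blood endothelial cells (log2 fold changes -4.19 and -4.36, edgeR adjusted p = 7.39e-09 and 4.88e-08). Cytl1, a secreted cytokine-like protein, averaged 31.8 ± 17.8 in lymphatic and 761 ± 469 in blood endothelial cells, and Rgcc 23.9 ± 10.5 in lymphatic and 375 ± 153 in blood endothelial cells (log2 fold changes -4.59 and -3.99, edgeR adjusted p = 4.1e-09 and 6.26e-10). Cfd, Sema3g, Ephx2, Dach1, Gkn3 and Adh7 completed the 12 largest decreases, all lower in 4 of 4 libraries, with 3 to 9 UMIs each in lymphatic cells.

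The lymphatic cells were not uniform. Ccl21a, Reln and Lyve1 were all detected in 426 of them (58.8%), 1 or 2 of the 3 in 231 (31.9%) and none in 67 (9.25%), which held Prox1, Mmrn1 and Flt4 alone. The 67 cells were 29 in TKO 1 and 8 in TKO 2, against 25 in Cre 1 and 5 in Cre 2, or 9.27% and 8.79% of the lymphatic cells of TKO and 11.96% and 4.505% of Cre libraries. The 67 cells had a higher median UMI count than cells with all 3 in 3 of 4 libraries. It was 2148 and 3498.5 in TKO and 3968 and 2099 in Cre libraries. Cells with all 3 had 1762 and 1785.5 in TKO and 3227 and 2123 in Cre libraries. The part of droplets mixed with blood endothelial cells among the 67 was not tested. The grouping used genes of the same cells and the genes that follow were ranked after their values were seen, so no test is given, and levels are plain CPM.

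Cells without Ccl21a, Reln and Lyve1 carried Ackr4 at 333 and 295 in TKO and 594 and 68.8 in Cre libraries, against 5.44 and 0 in TKO and 0 and 10.8 in Cre libraries for cells with all 3, in total 123 against 4 UMIs. The 3 better-filled libraries were far apart, while in Cre 2 the group without the genes held only 5 cells. Plvap, the protein of endothelial diaphragms, stood at 815 and 720.1 in TKO and 857 and 756 in Cre libraries, against 49.0 and 36.5 in TKO and 26.9 and 5.41 in Cre libraries. Slco2a1, a prostaglandin transporter, gave 346 and 327 in TKO and 442 and 481 in Cre libraries, against 24.5 and 45.6 in TKO and 55.7 and 37.9 in Cre libraries, and Foxp2, a transcription factor, 654 and 720.1 in TKO and 581 and 275 in Cre libraries, against 114 and 91.3 in TKO and 66.4 and 119 in Cre libraries.

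Parm1, the ephrin receptor Epha4, the cyclooxygenase Ptgs1 and the protein C receptor Procr gave mean levels of 284, 139, 278 and 211 in cells without the 3 genes, against 6.78, 2.70, 18.1 and 14.7 in cells with all 3. Claudin 5 was also higher without the 3 genes, at 864 and 818 in TKO and 899 and 825 in Cre libraries, against 525 and 584 in TKO and 634 and 606 in Cre libraries. The library ranges of these 5 genes did not overlap. Pecam1 stood at 926 and 622 in TKO and 878 and 963 in Cre libraries without the 3 genes, against 463 and 392.4 in TKO and 659 and 400.7 in Cre libraries with all 3, higher within every library but with overlapping ranges. Of the valve genes, Foxc2 ran at 123 and 229 in TKO and 41.5 and 68.8 in Cre libraries, against 49.0 and 82.1 in TKO and 32.3 and 125 in Cre libraries, with overlapping ranges, and Cldn11 at 37.0 and 0 in TKO and 34.6 and 0 in Cre libraries, against 38.1 and 9.13 in TKO and 12.6 and 59.6 in Cre libraries, likewise overlapping. The cells without the 3 genes numbered only 8 in TKO 2 and 5 in Cre 2, the libraries with 0.

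Cells with all 3 genes carried other genes that had few or no UMIs in the 67 cells with none of them. The mechanosensitive channel Piezo2 stood at 310.3 and 274 in TKO and 345 and 119 in Cre libraries and had 0 UMIs in the 67 cells without the 3 genes. Ackr2, the decoy receptor above, stood at 147 and 109.5 in TKO and 237 and 157 in Cre libraries, with 0 UMIs in the 67. Cells with 1 or 2 of the genes held it at 44.6 and 14.8 in TKO and 33.0 and 74.2 in Cre libraries. Slco2b1, a transporter of organic anions, averaged 179.6, and Igfbp3, a binding protein of insulin-like growth factors, 165, again with 0 UMIs in the 67. Pcsk6, a proprotein convertase, Stmn2, a microtubule regulator of neurons, and Adgrg3 gave means of 6.54, 13.0 and 14.4 in cells without the 3 genes, against 314, 400.1 and 334 in cells with all 3.

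Prox1 was present in both groups of cells. Prox1 stood at 1037 and 753 in TKO and 982 and 688 in Cre libraries in cells without the 3 genes, against 833 and 657 in TKO and 910.3 and 758 in Cre libraries in cells with all 3, and each of the first group carries it by the rule. Pdpn was lower without the 3 genes, at 148 and 32.7 in TKO and 20.7 and 68.8 in Cre libraries, against 354 and 411 in TKO and 515 and 282 in Cre libraries, and so were Nrp2, at 296 and 327 in TKO and 263 and 344 in Cre libraries, against 683 and 885 in TKO and 851 and 655 in Cre libraries, and Maf, at 889 and 1015 in TKO and 802 and 1375 in Cre libraries, against 1870.2 and 2473 in TKO and 2225 and 2220.1 in Cre libraries. The blood endothelial gene Vwf gave 222 and 98.2 in TKO and 249 and 0 in Cre libraries, against 10.9 and 9.13 in TKO and 25.1 and 0 in Cre libraries. Marco, by contrast, lay almost wholly in cells with 1 or 2 of the 3 genes, at 49.1 and 73.9 in TKO and 269 and 0 in Cre libraries. Only 12 of the 724 lymphatic cells held it, so these levels rest on few cells.

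**Figure D3:**
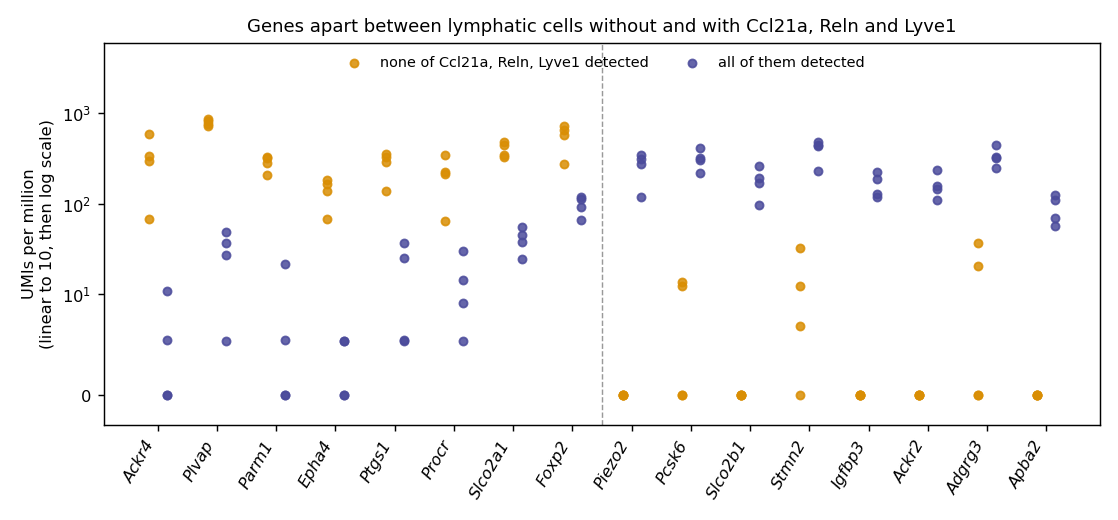
Level of 16 genes, in CPM, in lymphatic cells without Ccl21a, Reln and Lyve1 (67 cells) and with all 3 (426 cells); each point is 1 library, and genes were ranked after their values were seen. The 8 genes on one side are high where the 3 are missing, and the 8 on the other side, Piezo2 and Ackr2 among them, are at 0 or low there.

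Between genotypes, 1 of 6716 tested genes passed in lymphatic cells (0.0149%, edgeR quasi-likelihood test on 2 TKO against 2 Cre libraries), the chemokine Ccl8, which was higher in TKO. None of the 15 lymphatic genes outside the gate passed. An unadjusted p under 0.05 was reached by 248 of the 6716 genes, fewer than 1 in 20. The median log2 fold change over all was 0.00, and DESeq2's Wald test called 8. In simulated data of this size the test recovered 82% of genes changed by 2 on the log2 scale and 8% of those changed by 1, so smaller differences would mostly be missed.

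As a description, the 6 gate genes had negative TKO over Cre values: log2 fold changes were -0.06 for Prox1, -0.34 for Mmrn1, -0.51 for Flt4, -0.55 for Ccl21a, -0.41 for Reln and -0.27 for Lyve1. Prox1 turned positive in 4 of the alternatives. Of the 15 lymphatic genes outside the gate, 4 had positive and 11 negative values, with a median of -0.17. Klf10 stood at 109.9 and 171 in TKO and 142 and 110.0 in Cre libraries, and the TKO range enclosed the Cre one.

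Ccl8, a CC chemokine that attracts monocytes, stood at 104 and 208 CPM in TKO and 7.93 and 14.2 in Cre lymphatic cells (log2 fold change 3.92, SE 0.49, edgeR adjusted p = 0.046). The groups did not overlap, which held for 1986 of 6716 genes (29.6%). Its UMIs came from 28 of 313 and 7 of 91 lymphatic cells in TKO and from 4 of 209 and 4 of 111 in Cre libraries (8.95% and 7.69% in TKO, 1.91% and 3.604% in Cre libraries), and 1 cell of TKO 2 held 26 of that library's 45. Macrophages, the main holders of Ccl8, stood at 1763 and 2458 CPM in TKO and 913 and 637 in Cre libraries, fibroblasts at 167 and 144 in TKO and 32.3 and 72.3 in Cre libraries, and blood endothelial cells at 138 and 98.8 in TKO and 23.3 and 88.4 in Cre libraries. Lymphatic cells that met no fibroblast, smooth muscle or blood endothelial panel held Ccl8 in 22 of 209 and 6 of 62 cases in TKO. In Cre libraries 2 of 140 and 3 of 76 did. No macrophage panel was applied here, and the macrophage gene C1qa had a UMI in 86 of the 724 lymphatic cells. The share of the lymphatic difference that came with RNA of other cells was not tested; the call was lost under 6 of 17 alternatives, among them at least 4 gate genes (edgeR adjusted p = 0.198).

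The next genes by p did not pass. Aspn, the proteoglycan asporin, stood at 166 and 153 in TKO and 20.4 and 39.0 in Cre libraries (log2 fold change 2.62, SE 0.37, edgeR adjusted p = 0.0695), and Sfrp2, a Wnt modulator, at 166 and 134 in TKO and 11.3 and 35.5 in Cre libraries (log2 fold change 3.04, SE 0.46, edgeR adjusted p = 0.0799). Serpinf1, which encodes the antiangiogenic factor PEDF, stood at 139 and 139 in TKO and 17.0 and 39.0 in Cre libraries (log2 fold change 2.55, SE 0.40, edgeR adjusted p = 0.0833). Among 17 alternatives Aspn passed under 9, Sfrp2 under 8 and Serpinf1 under 9. For each of the 3 these included no filter on low counts, each fit without 1 library and DESeq2's Wald test (DESeq2 adjusted p = 0.0167 for Aspn and Sfrp2 and 0.0343 for Serpinf1). Fibroblasts held Aspn at 986 and 1039.6 in TKO and 657 and 701 in Cre libraries. Angptl1, an angiopoietin-like protein, had a log2 fold change of 3.07 (edgeR adjusted p = 0.152). On the lower side Col18a1, the collagen that yields endostatin, stood at 106 and 97.1 in TKO and 258 and 206 in Cre libraries (log2 fold change -1.17, SE 0.28, edgeR adjusted p = 0.499), and the chemokine Ccl2 at 16.9 and 37.0 in TKO and 67.9 and 46.1 in Cre libraries (log2 fold change -1.33, SE 0.45, edgeR adjusted p = 1). Zdhhc2, Zfp367 and Gmfg, which complete the lower 5, had log2 fold changes of -1.09, -1.57 and -1.154, and none passed.

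Marker lists of other cells differed in the sign of their TKO over Cre values in the lymphatic cells, with no gene called. All 8 fibroblast markers had positive TKO over Cre values, with a median of 1.16, and their summed level was 6211 and 4904 CPM in TKO and 1287 and 2599 in Cre lymphatic cells. In blood endothelial cells the same sum was 6139 and 4756 in TKO and 2506 and 2362 in Cre libraries. All 7 tested macrophage markers were positive too (median 0.95; summed 588 and 606 in TKO and 163 and 518 in Cre libraries), as were all 5 of the erythrocyte and platelet list (median 0.91; summed 29277 and 16951 in TKO and 7594 and 16175 in Cre libraries). Smooth muscle markers were positive in 1 and negative in 5 (median -0.27; summed 1022 and 698 in TKO and 778 and 1414 in Cre libraries), and B and plasma cell markers positive in 1 and negative in 4 (median -0.43). Of 3 tested pericyte markers 2 were positive, as were both tested markers each of T cells and of Schwann cells.

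All 12 immediate early and stress genes, which dissociation of tissue can raise, were likewise positive, with a median of 0.84 and a summed level of 7192 and 10694 in TKO and 3175 and 6854 in Cre libraries. Cre 1 was the lowest library for the fibroblast, macrophage, erythrocyte and platelet, and stress gene sums, and it was also the deepest. The part of other cells' RNA and of handling in the genotype values was not tested.

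The TKO over Cre effect differed between lymphatic and blood endothelial cells for 2 of 8121 genes (0.0246%, edgeR interaction test). Comp, a cartilage matrix protein of fibroblasts, stood at 90.1 and 120.2 in TKO and 90.6 and 95.8 in Cre lymphatic cells, but at 62.4 and 49.9 in TKO and 5.65 and 11.04 in Cre blood endothelial cells (difference of the log2 fold changes -2.997, SE 0.45, edgeR adjusted p = 0.0126). Hba-a2, a haemoglobin chain of red cells, stood at 5222 and 3236 in TKO and 1479 and 2816 in Cre lymphatic cells and at 5234 and 2912 in TKO and 3689 and 5016 in Cre blood endothelial cells (difference 1.151, SE 0.19, edgeR adjusted p = 0.0223). Comp RNA was also counted in fibroblasts. How far RNA from fibroblasts or red cells entered these 2 differences was not tested. DESeq2's Wald test called neither gene. Hba-a1, Aspn and Gas1 came next and did not pass, with differences of 1.04, 1.84 and 1.98 and an edgeR adjusted p of 0.0766 each.

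**Figure D4:**
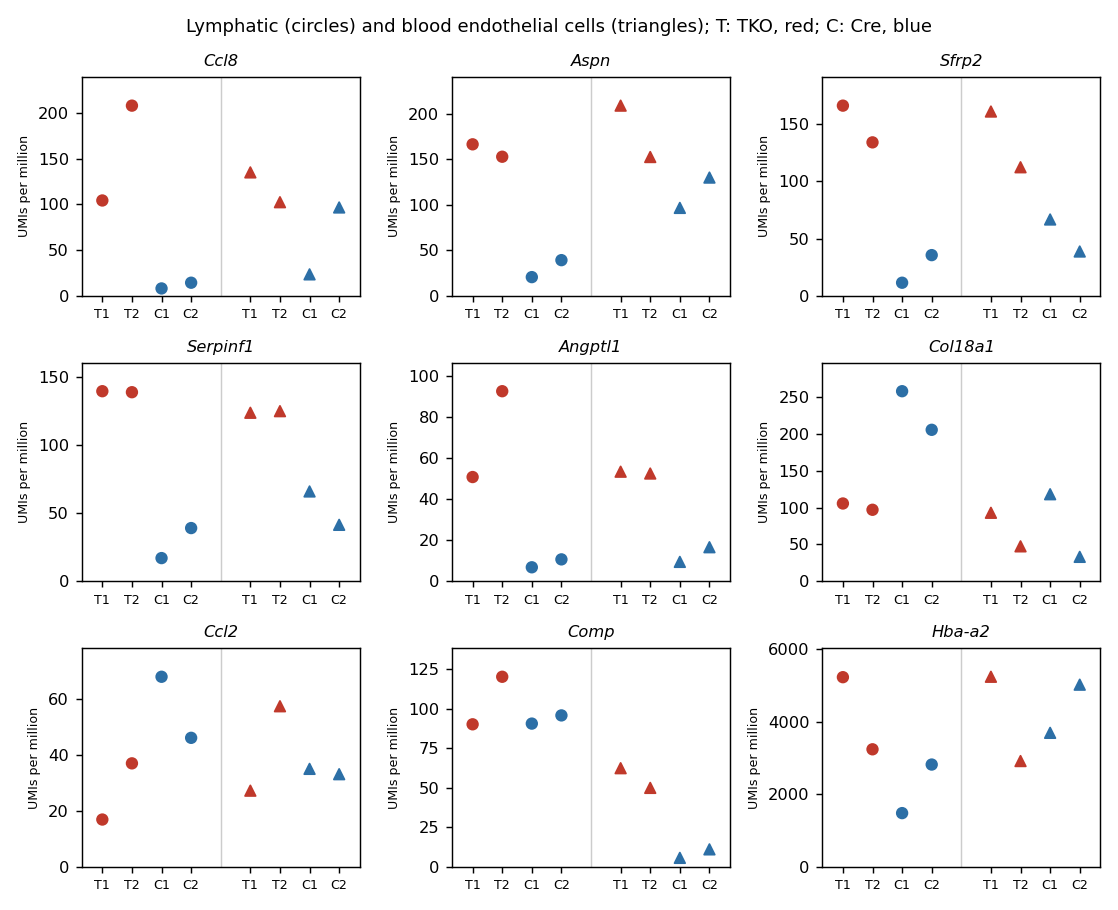
Level of the genes with the smallest p between genotypes, in CPM, in lymphatic (circles) and blood endothelial cells (triangles), TKO in red and Cre in blue; each point is 1 library. Ccl8 at 104 and 208 in TKO lies above 7.93 and 14.2 in Cre lymphatic cells, and Comp is alike in the 4 lymphatic libraries while TKO blood endothelial libraries lie above Cre ones.

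In bulk tissue the lymphatic genes are seen through a minority of the RNA, and fewer lymphatic cells cannot be told apart there from less RNA per cell. Total counts ran from 17179257 to 38633457 over the 23 libraries, and values are TMM-scaled CPM. In non-stripped aorta, 0 of 19 tested lymphatic genes differed between TKO and Cre, where 0.119% of all genes did. Prox1 stood at 2.06, 2.29 and 4.12 CPM in TKO and 1.01, 1.38 and 2.58 in Cre aortas (log2 fold change 0.77, SE 0.41, edgeR adjusted p = 0.353), and Flt4 at 13.9, 11.1 and 13.1 in TKO and 14.5, 17.2 and 21.1 in Cre aortas (log2 fold change -0.47, SE 0.16, edgeR adjusted p = 0.189). Mmrn1 stood at 5.22, 4.57 and 10.2 in TKO and 5.46, 7.12 and 7.32 in Cre aortas, and Reln at 5.62, 4.88 and 8.36 in TKO and 5.19, 6.91 and 7.32 in Cre aortas (log2 fold changes 0.00 and -0.04). Flt4 is the receptor and Mmrn1 and Reln are secreted proteins of the same cells. Lyve1, shared with macrophages, stood at 13.2, 14.3 and 21.1 in TKO and 16.5, 14.6 and 18.1 in Cre aortas (log2 fold change -0.02). None of these 5 genes passed. Klf10 was listed at 41.2, 35.4 and 0 in TKO and 40.6, 50.1 and 65.7 in Cre aortas, with TKO 3 at 0.

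In stripped aorta 0 of 19 differed as well (0.024% of all genes). Prox1 stood at 2.45 and 1.87 in TKO and 2.14, 3.42, 5.56 and 4.26 in Cre samples (log2 fold change -0.83, SE 0.40, edgeR adjusted p = 0.412), and Flt4 at 12.04 and 13.2 in TKO and 11.3, 16.1, 13.8 and 17.5 in Cre samples (log2 fold change -0.22, SE 0.19, edgeR adjusted p = 0.655). Lyve1 stood at 127 and 106 in TKO and 166, 128, 228 and 99.1 in Cre samples (log2 fold change -0.42). Mmrn1 stood at 21.6 and 7.05 in TKO and 19.4, 16.03, 12.1 and 23.5 in Cre samples, and Reln at 12.6 and 10.9 in TKO and 9.60, 6.02, 3.78 and 12.6 in Cre samples (log2 fold changes -0.31 and 0.55). Prox1, Flt4, Lyve1, Mmrn1 and Reln thus remained measurable after stripping. The gate gene Ccl21a held 1 count over the 6 stripped and 0 over the 6 non-stripped libraries, so its near absence was not particular to stripped aorta. The tables were normalised apart and no level is compared between them. In isolated fibroblasts 0 of 18 tested lymphatic genes differed (0.0638% of all genes). In simulated data of the non-stripped, stripped and fibroblast designs 73%, 30% and 83% of genes changed by 1 on the log2 scale were recovered.

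In TKO aortas the IL-9 antibody went with lower Flt4, Lyve1 and Mmrn1 and higher Prox1, in a comparison where 32.1% of 16461 genes differed (21% higher, 11% lower). Of 19 tested lymphatic genes 3 were higher and 8 lower. Flt4 stood at 10.2 and 11.1 CPM with the antibody and 23.1, 23.6 and 22.0 with IgG (log2 fold change -1.10, SE 0.13, edgeR adjusted p = 0.00083). Lyve1 stood at 22.8 and 16.4 with the antibody and 42.5, 72.4 and 77.4 with IgG (log2 fold change -1.70, SE 0.29, edgeR adjusted p = 0.00476), and Mmrn1 at 4.16 and 1.97 with the antibody and 13.0, 8.89 and 13.7 with IgG (log2 fold change -1.93, SE 0.36, edgeR adjusted p = 0.00717). The RNA of these 3 genes lay to 65.0%, 19.1% and 72.1% in lymphatic cells among the single cells.

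Prox1 ran the other way, at 12.7 and 6.88 with the antibody and 4.24, 4.03 and 3.82 with IgG (log2 fold change 1.29, SE 0.28, edgeR adjusted p = 0.0139); without the first antibody sample the adjusted p was 0.0857, and without the third IgG sample 0.0546. The other 2 higher genes were Fxyd6, at 333 and 358 with the antibody and 58.6, 44.0 and 49.98 with IgG (log2 fold change 2.76, SE 0.16, edgeR adjusted p = 0.000172), and Scn3b, at 73.9 and 63.1 with the antibody and 10.4, 6.21 and 10.5 with IgG (log2 fold change 2.93, SE 0.23, edgeR adjusted p = 0.000196). Reln, at 12.8 and 10.2 with the antibody and 10.6, 6.58 and 8.96 with IgG, did not pass (log2 fold change 0.40, SE 0.24, edgeR adjusted p = 0.235). Cp, Gpm6a, Tbx1, Sox18 and Maf were lower, with log2 fold changes of -0.72, -0.86, -1.94, -1.08 and -0.75; Pdpn (log2 fold change -1.49) and Nrp2 (-0.55) did not pass. Leaving out single samples ended the calls of Gpm6a, Sox18 and Maf in some cases.

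Marker lists of other cells moved in the same tables. Of 12 pan-endothelial genes 11 were lower and none higher (median -0.99), and of the 6 blood endothelial panel genes 5 were lower (median -0.92). All 8 fibroblast markers were lower (median -1.48), as were all 7 tested macrophage markers (median -1.66) and all 6 mesothelial markers (median -4.94). Schwann cell markers were higher in 5 of 6 (median 2.19) and smooth muscle markers in 5 of 6 (median 1.23). Of 6 adipocyte markers 4 were lower, of 6 pericyte markers 3 were lower, and of 7 T cell markers 1 was higher. The lymphatic decreases thus stood beside lower marker RNA of endothelial, fibroblast, macrophage and mesothelial cells. The increases of Fxyd6 and Scn3b stood beside higher Schwann cell and smooth muscle marker RNA, but their source cells were not tested. Among the 6 single-cell classes compared, the highest mean after lymphatic cells was 55.8 CPM in fibroblasts for Fxyd6. For Scn3b it was 4.03 CPM in blood endothelial cells. Schwann cells were not among these classes. How much of the decreases or of the increases followed the makeup of the dissected tissue was not tested.

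**Figure D5:**
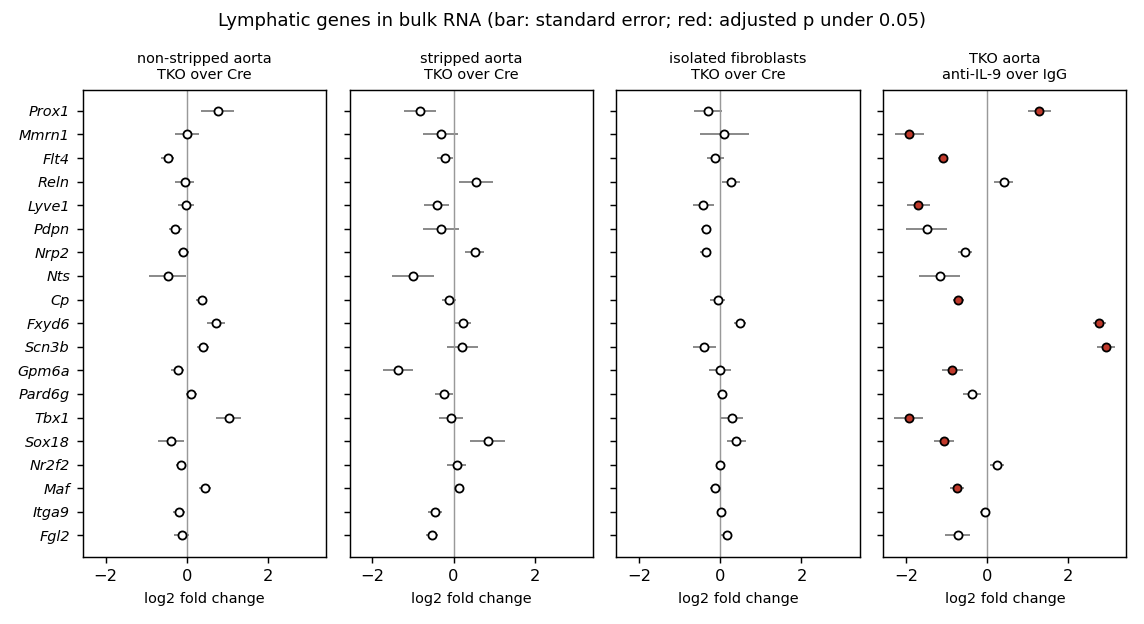
Log2 fold change with its standard error for 19 lymphatic genes in the 4 bulk comparisons; red points have an adjusted p under 0.05. No gene is red in the 3 TKO over Cre panels, and 11 are red for anti-IL-9 over IgG, where Fxyd6 and Scn3b lie near 2.76 and 2.93 and Mmrn1 near -1.93.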

How the data were processed

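Single-cell counts are the UMI counts per gene and barcode deposited by the authors and, per the file headers, made with Cell Ranger 6.0.0; the build is GRCm38 per the submitters' processing notes. Bulk counts are the authors' deposited read counts per gene; the same notes name Trimmomatic 0.36, STAR 2.5.2b, featureCounts and Subread 1.5.2. Of the bulk columns, 1 matched no sample and was not used, and the row without a gene name held at most 0.0025% of counts.

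UMIs were summed per library over the cells of a class. edgeR 4.0.16 in R 4.3.3 fitted quasi-likelihood models to each whole table (filterByExpr with a minimum count of 10, TMM), with Benjamini-Hochberg adjustment over all genes tested and a threshold of 0.05. Lymphatic and blood endothelial cells were compared with the library as a block, and the interaction of class and genotype was tested in that fit. Shares were compared by exact permutation (scipy 1.17.1). DESeq2 1.42.0 was an alternative. Each fit was tested on simulated data in which 200 genes were changed and all genes had the same dispersion. The files were read and the doublet scores made in Python 3.11.15 with scanpy 1.11.5. Scrublet's automatic threshold marked 0 cells, so it has not worked; an alternative left out the top 5% of its scores, which hold 54 lymphatic cells.

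Named genes were the gate genes, Ptprc, Klf10 and Il9r. The 12 genes of each direction that changed most between classes were added (mean of at least 50 CPM, same sign in 4 libraries), the 5 smallest p per direction between genotypes where fewer than 5 passed, the 5 smallest p of the interaction, and list members. Genes of the cell subgroups were chosen after their values were seen. The gate and the 29 gene lists were chosen with earlier results of these data known. The labels do not say that samples came from separate mice, so p-values measure the spread between these samples. Intervals and limits from 0 counts cover counting error only, since free RNA and mixed droplets are not in them. Depth sets the precision: the 724 lymphatic cells had a median of 2051.5 UMIs (1001 to 30570). Sequences come from GENCODE transcripts of GRCm38.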

Additional observations from a re-analysis of the deposited data

Results flagged for a closer look

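The TKO over Cre effect of 2 genes differed between lymphatic and blood endothelial cells by the edgeR interaction test, which is what marks them out. For Comp the difference of the log2 fold changes was -2.997 (edgeR adjusted p = 0.0126); it was 90.1 and 120.2 CPM in TKO and 90.6 and 95.8 in Cre lymphatic cells, and 62.4 and 49.9 in TKO and 5.65 and 11.04 in Cre blood endothelial cells. For Hba-a2 the difference was 1.151 (edgeR adjusted p = 0.0223), with the 2 lymphatic TKO libraries at 5222 and 3236 and the Cre ones at 1479 and 2816. Fibroblasts held Comp at 295 and 305 CPM in TKO and 69.1 and 63.7 in Cre libraries. Lymphatic cells thus stood below the fibroblasts in TKO and above them in Cre libraries. The part of RNA from fibroblasts and red cells in these 2 differences was not tested.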

How the results depend on the processing

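The lymphatic share of kept cells differed by 0.0606 percentage points (TKO minus Cre) and turned negative with at least 4 gate genes (-0.0651), with Lyve1 left out (-0.0512), with Prox1 required (-0.0802) and with at most 10% mitochondrial UMIs (-0.2848); leaving out 1 library gave -0.3452 to 0.4663. The share of endothelial cells differed by 6.28 points, by -0.2252 with at most 10% mitochondrial UMIs, and by -2.0936 to 14.6482 with 1 library left out. Genes called between genotypes in lymphatic cells, 1 as reported, numbered 0 with DESeq2 size factors, at least 4 gate genes, Lyve1 left out, at least 2000 UMIs or shared barcodes left out, 2 with Prox1 required, 6 without cells meeting another panel, 7 with an endothelial gene required, 8 with DESeq2's Wald test, 20 with at most 10% mitochondrial UMIs and 65 with no filter on low counts. Leaving out 1 library called 25 to 178 genes (35 without TKO 1, 25 without TKO 2, 36 without Cre 1, 178 without Cre 2), each with a lone library on 1 side that is assumed to vary like the others. Lymphatic against blood endothelial cells, 1821 genes as reported, gave 1103 with the Wald test and 1121 to 1659 with 1 library left out (1121 without Cre 1). The interaction, 2 genes, gave 0 with the Wald test, 34 with no filter and 1 to 82 with 1 library left out (1 without TKO 1, 4 without Cre 1, 82 without Cre 2). Lymphatic genes called in bulk, 0 as reported in each TKO over Cre table, were 2 in non-stripped aorta with the Wald test and 2 with no filter, 2 in stripped aorta with the Wald test and 1 in fibroblasts with no filter; anti-IL-9 gave 8 to 15 against 11. The cause of these moves was not tested.

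For Ccl8 in lymphatic cells the log2 fold change stayed between 3.31 and 4.39 with 1 library left out; the edgeR adjusted p was 0.0573 with DESeq2 size factors, 0.198 with at least 4 gate genes, 0.218 with Lyve1 left out, 0.191 without the top Scrublet scores, 0.726 with at least 2000 UMIs and 0.0582 without shared barcodes. Comp ran from -3.20 to -2.35 and lost its call without TKO 1 or Cre 1 (edgeR adjusted p = 0.655 and 0.88), and Hba-a2 ran from 0.876 to 1.42 and lost it without TKO 1, TKO 2 or Cre 1 (0.385, 0.11 and 0.88). In lymphatic cells Prox1 turned to 0.09 with Prox1 required and 0.0269 with at most 10% mitochondrial UMIs (-0.2375 to 0.1252 with 1 library left out), and Klf10 to -0.1652 without cells meeting another panel and -0.0235 with at most 10% mitochondrial UMIs (-0.197 to 0.4261). With 1 sample left out, Mmrn1 ran from -0.4326 to 0.2242, Reln from -0.2963 to 0.1194 and Lyve1 from -0.2484 to 0.112 in non-stripped aorta, and Mmrn1 from -1.3347 to 0.2841 in stripped aorta. Of the alternatives for named genes, 763 kept direction and side of the threshold, 39 newly passed, 25 no longer passed and 18 reversed.

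The single-cell replicate numbers gave only 2 pairs and are not known to pair mice. With the replicate number as a block the share differences stayed at 0.0606 and 6.28 (exact p = 1 for both pairings), 1 gene was called between genotypes and Ccl8 had an edgeR adjusted p of 0.0237; deviations of TKO 1 and Cre 1 correlated at 0.134. Bulk labels share no replicate numbers between groups. The planned removal of Scrublet's doublets was not run, since its threshold marked 0 cells; the top 5% of scores and thinning to 1000 UMIs were added after the data were seen. Depth limits the genotype comparison: TKO 2 gave 207778 lymphatic UMIs, against 883548 in Cre 1.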
